A study of Mus musculus with 4 samples.

Results

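The homeostatic microglia genes P2ry12, Tmem119, Cx3cr1, Csf1r, Aif1, Trem2, Tyrobp, Sall1 and Gpr34 were followed in cultures that are meant to hold oligodendroglial cells. They were found by their symbols, which gave 9 of the 53465 genes listed for each library. RNA-Seq had been performed on primary mouse oligodendroglial cell (1° OGC) cultures from the forebrain of mice at postnatal day 2 to 4. The cells had been shaken off mixed cultures, depleted of microglia and kept under differentiating conditions for 3 days (3ddiff). Ctrl cultures came from Zfp276 flox/flox mice. Zfp276cko cultures came from Sox10::Cre tg; Zfp276 flox/flox mice, in which Cre removes the floxed exons 2 to 5 of Zfp276, a gene for a zinc finger protein, in cells that have expressed Sox10. By the methods, mice used for culture also carried a Rosa26stopfloxtdTomato allele that served to recognize Zfp276cko pups, had a genetic background of C3H x C57Bl/6J and were of both sexes. Each genotype had 2 independent preparations, and each preparation pooled cells of 3 mice, so that p-values measure the spread between pooled cultures. The ctrl replicates 1 and 2 had 21311469 and 21068322 counted reads, whereas 25265366 and 26599809 were obtained for Zfp276cko replicates 1 and 2.

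Microglia are the resident macrophages of the brain. They derive from the yolk sac and not from the neuroectoderm, do not belong to the Sox10-expressing lineage and depend on signalling through the receptor Csf1r. In the healthy brain they express a set of surface receptors and regulators that is called homeostatic. Parts of this set, but not all of its genes, are known to fall when microglia are activated or taken into culture. Microglia also grow in mixed glial cultures, where they sit loosely on the astrocyte layer and can come off with the oligodendroglial cells on shaking.

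Zfp276 had 1648, 2230.3, 489.5 and 502.6 normalized counts in ctrl 1, ctrl 2, Zfp276cko 1 and Zfp276cko 2, the order in which values per library are given below, so the libraries followed their labels. A normalized count is the deposited count scaled to the mean effective library size. Sox10, the transcription factor that marks oligodendroglial cells, had 18135, 20744, 17805 and 18611 normalized counts. In CPM, counts scaled to 1 common library total, per kilobase of exon, Sox10 reached 235 to 287 and the myelin gene Mbp 450.2 to 886. The labelled cell type was thus present. Next to them, Tyrobp reached 143 to 205 on the same scale, and the macrophage marker Adgre1 139 to 180.3. The cultures therefore contained RNA of microglia or other macrophages after the depletion step. In bulk RNA, fewer cells of a type and less RNA per cell cannot be told apart.

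Of the 9 genes, 8 were detected and passed the filter on low counts, whereas Gpr34 had a count of 0 in all 4 libraries. The 8 detected genes did not move as a block. Csf1r, Trem2 and P2ry12 were 5.86 to 7.88 times higher in ctrl 1 than in ctrl 2, Aif1 and Sall1 were 2.57 and 1.90 times lower in ctrl 1, and Cx3cr1 was alike in both. The Zfp276cko libraries lay close together, furthest apart for P2ry12, and for 7 of the 8 genes they lay between the ctrl libraries, compared with 27.7% of all genes. Then 15766 genes were tested by the quasi-likelihood test of edgeR with p-values adjusted after Benjamini-Hochberg. In this test, no homeostatic gene and 0% of all genes were called between the genotypes. Zfp276 itself was not called, with a log2 fold change of -1.97 and an adjusted p of 0.0962 in edgeR. The lowest adjusted p of any gene was 0.0725 in edgeR. A gene not called by this test thus cannot be taken as unchanged.

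**Figure D1:**
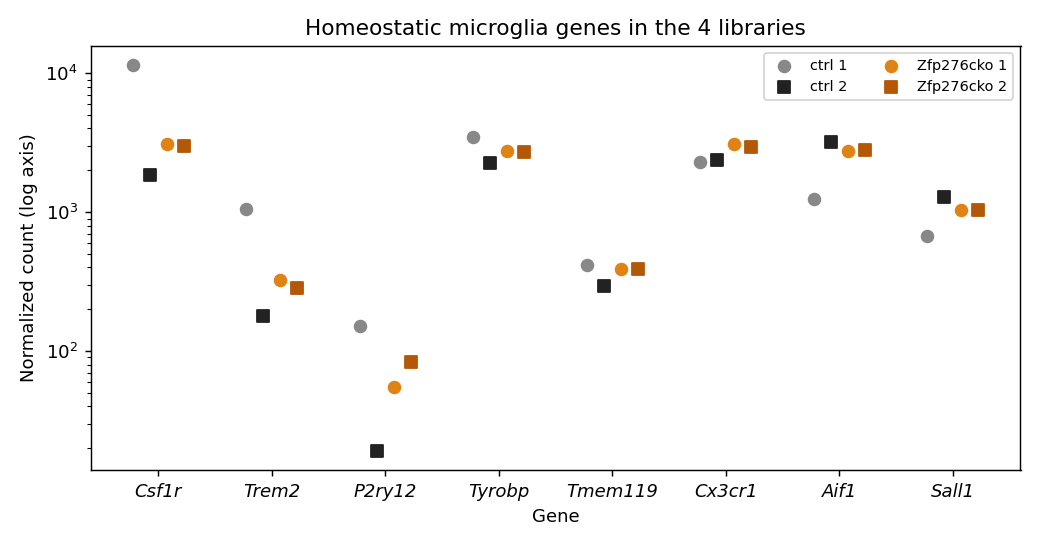
Normalized counts (log axis) of the 8 detected genes in each library, with circles for replicate 1 and squares for replicate 2 of ctrl (grey, black) and Zfp276cko (orange, brown). Csf1r, Trem2 and P2ry12 are far apart in the ctrl libraries, Aif1 and Sall1 are apart in the opposite direction, and the Zfp276cko libraries sit between them except for Cx3cr1.

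Csf1r encodes the receptor for the growth factors Csf1 and Il34, on which survival of microglia depends. It had 11409 and 1850.0 normalized counts in the ctrl libraries and 3085 and 3016 in the Zfp276cko libraries. Ctrl 1 stood far above the other 3 libraries, and both Zfp276cko libraries were nearer to ctrl 2. Ctrl had a mean of 6629 ± 6759 and Zfp276cko cultures one of 3051 ± 48.2 (SD, n = 2 each). This corresponds to a log2 fold change of -1.12 ± 0.86 (SE) with an adjusted p of 0.587 in edgeR, and its 95% interval ran from -3.47 to 1.23. Of the 5774 exon bases of Csf1r, 873 overlap Hmgxb3 on the opposite strand, and the strand setting of the counting is not given in the sources used here. Hmgxb3 had 2238 and 2867 normalized counts in ctrl, in the opposite order to Csf1r. The part of Hmgxb3 reads in the counts of Csf1r was not tested.

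Trem2 is a surface receptor for lipids and lipoproteins that signals through the adaptor Tyrobp. Its normalized counts were 1055.5, 180.05, 327.6 and 283.5. As for Csf1r, ctrl 1 was high and ctrl 2 was the lowest library. The log2 fold change was -1.01 ± 0.85 (SE, adjusted p = 0.617, edgeR), less than the spread between the ctrl preparations. P2ry12, the receptor for ADP that guides microglial processes towards damaged cells, had 151, 19.1, 55.2 and 84.2 normalized counts. It was the least abundant of the detected genes, and the value of ctrl 2 rested on 17 reads, with a Poisson interval (95%) of 11.1 to 30.6 normalized counts that covers counting error only. Its log2 fold change was -0.28 ± 0.98 (SE, adjusted p = 0.918, edgeR) with an interval from -2.93 to 2.37, so that this comparison had almost no precision.

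Tyrobp, also called Dap12, is the adaptor that passes the signals of Trem2 and related receptors to the kinase Syk. Its normalized counts of 3454, 2262, 2747 and 2703 differed by 1.53 times between the ctrl libraries. Tyrobp thus differed less between the libraries than its partner Trem2. The log2 fold change of Tyrobp was -0.07 ± 0.22 (SE, adjusted p = 0.913, edgeR). Tmem119, a membrane protein that is used as a marker of resident microglia, had 418, 293, 392 and 391 normalized counts. Both Zfp276cko libraries were near ctrl 1 here, and the log2 fold change was 0.14 ± 0.22 (SE, adjusted p = 0.805, edgeR).

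Cx3cr1, the receptor for the neuronal chemokine Cx3cl1, was alike in both ctrl libraries. It had 2290.3 and 2369 normalized counts in ctrl and 3095 and 2966 in Zfp276cko libraries. The groups did not overlap, and Cx3cr1 was the only detected gene with both Zfp276cko values above both ctrl values, 1 of 8 compared with 26.8% of all genes. Means were 2329.5 ± 55.5 in ctrl and 3030.2 ± 91.1 in Zfp276cko cultures (SD, n = 2 each), a 1.30-fold difference. The log2 fold change was 0.38 ± 0.09 (SE) with an unadjusted p of 0.0104 and an adjusted p of 0.189 in edgeR. It thus was not called.

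Aif1, the gene for the calcium-binding protein Iba1 by which microglia are commonly stained, had 1248 and 3204 normalized counts in ctrl and 2769.8 and 2817 in Zfp276cko libraries. Its order in ctrl was the reverse of that of Csf1r, with ctrl 1 as the lowest of all libraries. The log2 fold change was 0.33 ± 0.47 (SE, adjusted p = 0.779, edgeR). Sall1, a zinc finger transcription factor that maintains the microglial program, had 672, 1275, 1039 and 1039.6 normalized counts. Like Aif1, it was lowest in ctrl 1 and highest in ctrl 2, and its log2 fold change was 0.09 ± 0.33 (SE, adjusted p = 0.918, edgeR).

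Gpr34, a receptor for lysophosphatidylserine, had no read in any library and was thus below the floor of 3 counts per library. Its exons share no base with another gene in the GENCODE annotation of mm10. Gpr82, the neighbouring receptor gene, had counts of 4, 0, 1 and 1. Cask, within which Gpr34 lies on the opposite strand, was covered by 7016 to 8370 reads. Of the 27 other microglia and macrophage genes listed for comparison, Siglech was likewise at 0 in all libraries. Whether these genes were silent or were not captured by the counting was not tested.

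Counts of the 9 genes had a different make-up in each ctrl library. Csf1r took 55.1% of them in ctrl 1 (exact binomial interval 54.4 to 55.9%) and 16.2% in ctrl 2 (15.4 to 16.9%), compared with 22.8% and 22.7% in the Zfp276cko libraries. For Aif1, these shares were 6.03% (5.68 to 6.39%) and 28.0% (27.1 to 28.9%) in ctrl, and 20.5% and 21.2% in Zfp276cko libraries. These intervals, which cover counting error only, do not overlap between the ctrl libraries. The genes were also set in relation to the other microglia genes. Per 1000 counts of the 27 other genes, Tyrobp had 31.0, 31.7, 30.3 and 29.1 counts, and its highest and lowest value differed by 1.09 times. Tmem119 was nearly as even, with 3.75, 4.10, 4.32 and 4.21 counts. Csf1r had 102, 25.9, 34.0 and 32.5 counts, whereas Aif1 had 11.2, 44.9, 30.5 and 30.4. Cx3cr1, which hardly differed between the ctrl libraries in normalized counts, had 20.5, 33.2, 34.1 and 32.0 counts on this relative scale and was low in ctrl 1. By this measure ctrl 2 lay between the Zfp276cko libraries for Cx3cr1. The genotype difference of Cx3cr1 therefore depended on the scale on which it was expressed.

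**Figure D2:**
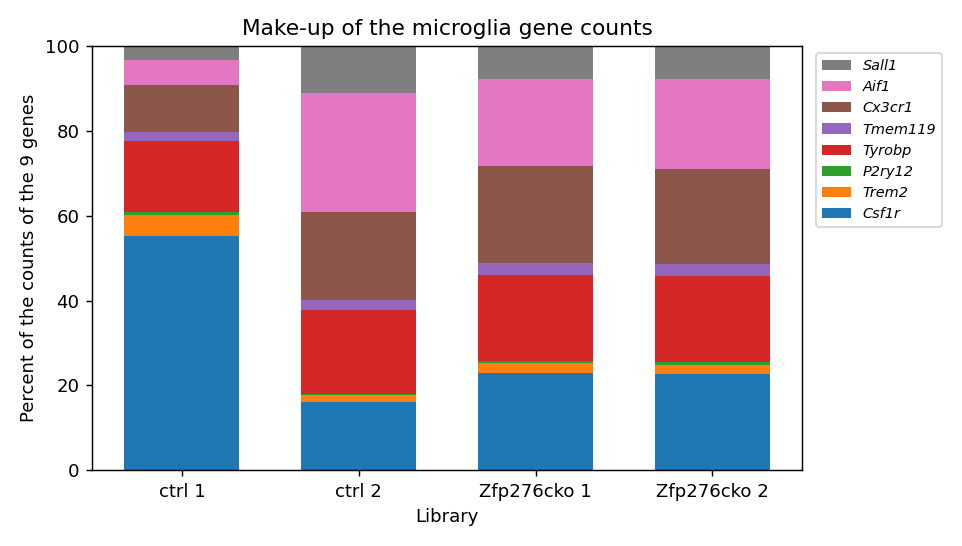
Percent of the summed counts of the 9 genes that each gene takes in each library, with 1 stacked bar per library. Csf1r takes 55.1% of the bar in ctrl 1 and 16.2 to 22.8% in the other libraries, and Gpr34 has no share.

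Levels of different genes were compared as CPM per kilobase of all annotated exon bases. Tyrobp had the highest level in all 4 libraries (205, 143, 180.2 and 177). Csf1r was next in ctrl 1 with 78.1 but only the fourth in ctrl 2 with 13.5, and Aif1 was next in ctrl 2 with 88.2 and the third in ctrl 1 with 32.2. In both Zfp276cko libraries the order was Tyrobp, Aif1, Cx3cr1, Csf1r, Sall1, Tmem119, Trem2 and P2ry12. On this scale the neighbours Cx3cr1 (30.0 and 28.8) and Csf1r (23.4 and 22.9) did not overlap in Zfp276cko libraries, but Csf1r spanned the level of Cx3cr1 in ctrl. Among the detected genes, P2ry12 was lowest in every library with 2.34, 0.317, 0.948 and 1.45. The place of Trem2 depended on the gene model, since all its exons cover 4946 bases and its longest coding transcript 1088. Per kilobase of that transcript, Trem2 had 38.3, 6.98, 13.2 and 11.4 and lay above Sall1 and Tmem119 in the Zfp276cko libraries.

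The gap between the ctrl libraries was large by the standard of the whole data set. Only 1.65% of 14301 genes were further apart in the ctrl pair than P2ry12, 2.29% than Csf1r and 2.40% than Trem2. For Aif1 and Sall1 these shares were 7.73% and 14.2%, for Tyrobp and Tmem119 24.7% and 29.8%, and for Cx3cr1 89.9%. At least a 2-fold gap between the ctrl replicates was present for 4 of the 8 homeostatic genes and 12.7% of all genes. Between the Zfp276cko replicates it was present for 0 of 8 and 0.322%. The median gap of the 8 genes was 1.14 on the log2 scale in ctrl and 0.03 in Zfp276cko cultures. For all genes it was 0.29 and 0.09. A chi-square test set the gaps against counting error alone. Past an unadjusted p of 0.05 in this test, 65.2% of genes differed between the ctrl libraries, among them 7 homeostatic genes. Between the Zfp276cko libraries 25.7% differed, among them 1 homeostatic gene. The test holds no spread between preparations, so it does not measure how unusual the ctrl gap was.

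The genotype comparison asks whether loss of Zfp276 in oligodendroglial cells goes along with other levels of microglial RNA. No homeostatic gene and 0% of all genes were called by edgeR, and the deleted gene Zfp276 was not called either. The thresholds for a call were 0.05 for the adjusted p, 0.6 for the size of the log2 fold change and 20 for the mean normalized count. At an unadjusted p of at most 0.05, 1 of 8 was higher (Cx3cr1) and 0 were lower, against 8.33% of all genes higher and 7.3% lower. DESeq2, which called 4.91% of all genes with the same thresholds, called none of the 8. Its adjusted p was lowest for Cx3cr1 at 0.157. The Zfp276cko pair lay above the ctrl pair for 1 of 8 genes (26.8% of all genes), below for 0 of 8 (23.7%) and between them for 7 of 8 (27.7%). The median log2 fold change of the 8 genes was 0.01, and that of all tested genes was -0.00.

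Which ctrl library was used set the direction. Without ctrl 1, Csf1r, Trem2 and P2ry12 were called higher in Zfp276cko cells by 0.72, 0.76 and 1.86 on the log2 scale, in a fit that called 16% of all genes. Without ctrl 2, the same genes were called lower with log2 fold changes of -1.92, -1.80 and -1.12, and Aif1 and Sall1 were called higher with 1.15 and 0.62, in a fit that called 18.6% of all genes. Each of these fits assumes that the single ctrl library varies like the Zfp276cko pair. Cx3cr1 stayed between 0.35 and 0.41 whichever library was left out. Tmem119 moved from 0.42 without ctrl 1 to -0.11 without ctrl 2, and Tyrobp from 0.27 to -0.36.

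**Figure D3:**
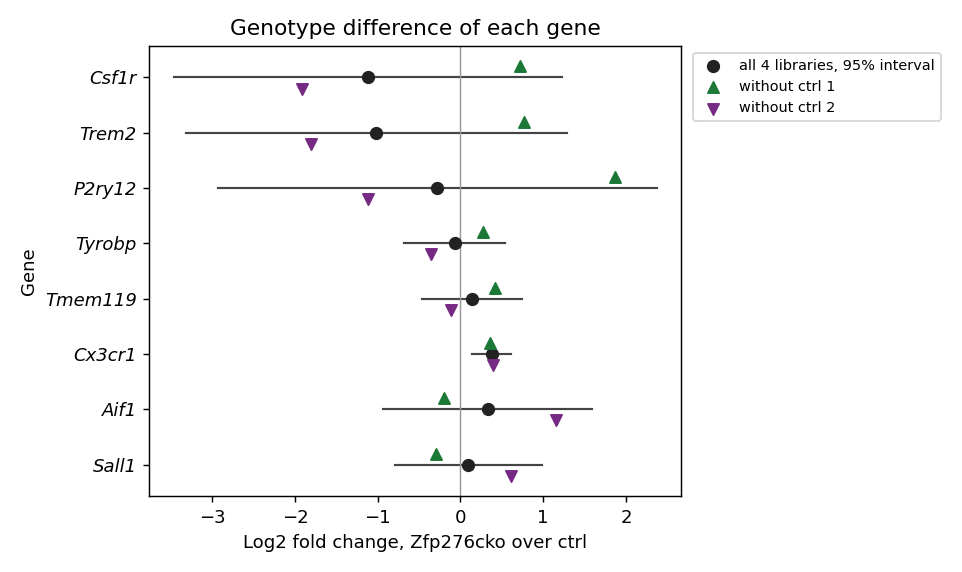
Log2 fold change of Zfp276cko over ctrl for each detected gene in edgeR, with black points and lines for the estimate and its 95% interval from all 4 libraries, and triangles for the estimates without ctrl 1 (green, upward) and without ctrl 2 (purple, downward). The triangles lie on opposite sides of 0 for every gene except Cx3cr1.

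The profiles across the 4 libraries were compared between genes. Distances are Euclidean, in log2 units, between values centred on the mean of each gene. Csf1r and Trem2 were the closest pair with 0.15, followed by Tmem119 and Tyrobp with 0.21 and Aif1 and Sall1 with 0.44. P2ry12 and Aif1 were farthest apart with 3.07. Trem2 was thus closer to Csf1r than to its adaptor Tyrobp, from which it was 1.46 away. Among 14316 other genes, the 5 nearest to the mean profile of the 8 genes were BC028528, Vps13c, Asah1, Copz2 and Col4a5, at distances of 0.04 to 0.06. Asah1 encodes the lysosomal acid ceramidase, and it had 4700.5, 2656, 3646 and 3800.0 normalized counts. Nearest to single genes, a comparison chosen after the values were seen, Col6a1, a collagen chain, came first for both Csf1r and Trem2 (894, 129, 249 and 234 normalized counts), and Syp, the gene for the synaptic vesicle protein synaptophysin, came first for Aif1 (424, 1044, 955.5 and 934). The chemokine gene Ccl9 came first for P2ry12 (1001, 152, 413 and 485), Ntrk3 for Tmem119, Hbp1 for Cx3cr1 and Rasgef1b for Sall1. These profiles rest on 4 libraries that share their scaling.

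The 27 other microglia and macrophage genes, of which 25 were tested, also differed between the ctrl libraries, mostly in 1 direction. They were highest in ctrl 1 for 14 genes and lowest in ctrl 2 for 21 genes, compared with 4836 and 4856 of all 15766 tested genes. The IgG receptor gene Fcgr3, which has close relatives that can share its reads, had 1656, 23.6, 152 and 160.7 normalized counts, and P2ry13, a close relative and chromosomal neighbour of P2ry12, had 332, 5.63, 86.9 and 80.8. Ctrl 1 was high and ctrl 2 low for both, as for P2ry12. Adgre1 had the most counts of the list on average over the libraries, without regard to gene length, with 14772, 10649, 11501 and 11499.7 normalized counts. Summed over the list, the level was 4407, 3012, 3969 and 4060.3 CPM, and for the 9 homeostatic genes it was 818, 483, 591 and 582. Csf1r alone made up 55.1% of the homeostatic sum in ctrl 1 and 16.2 to 22.8% in the other libraries.

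Between the genotypes, edgeR called none of the 25 genes (0% of all genes). At an unadjusted p of at most 0.05, 2 were higher and 1 was lower, compared with 8.33% and 7.3% of all genes, and DESeq2 called these 3, compared with 4.91% of all genes. Ptprc, the leukocyte phosphatase CD45, had 3018 and 3101 normalized counts in ctrl and 5092 and 5264 in Zfp276cko libraries (log2 fold change 0.76 ± 0.09 SE, adjusted p = 0.117 in edgeR). Cd68, a lysosomal protein of phagocytes, had 3808 and 2233 in ctrl and 6142 and 5830.2 in Zfp276cko libraries (0.99 ± 0.28 SE, adjusted p = 0.24 in edgeR). Fcrls, a microglial receptor-like protein, had 12725 and 18324 in ctrl and 6568 and 6761 in Zfp276cko libraries (-1.22 ± 0.21 SE, adjusted p = 0.147 in edgeR). Over the whole list, 9 genes lay above and 2 below both ctrl libraries and 13 lay between them, compared with 26.8%, 23.7% and 27.7% of all genes. The median log2 fold change of the list was 0.14, with 0.74 without ctrl 1 and -0.22 without ctrl 2.

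**Figure D4:**
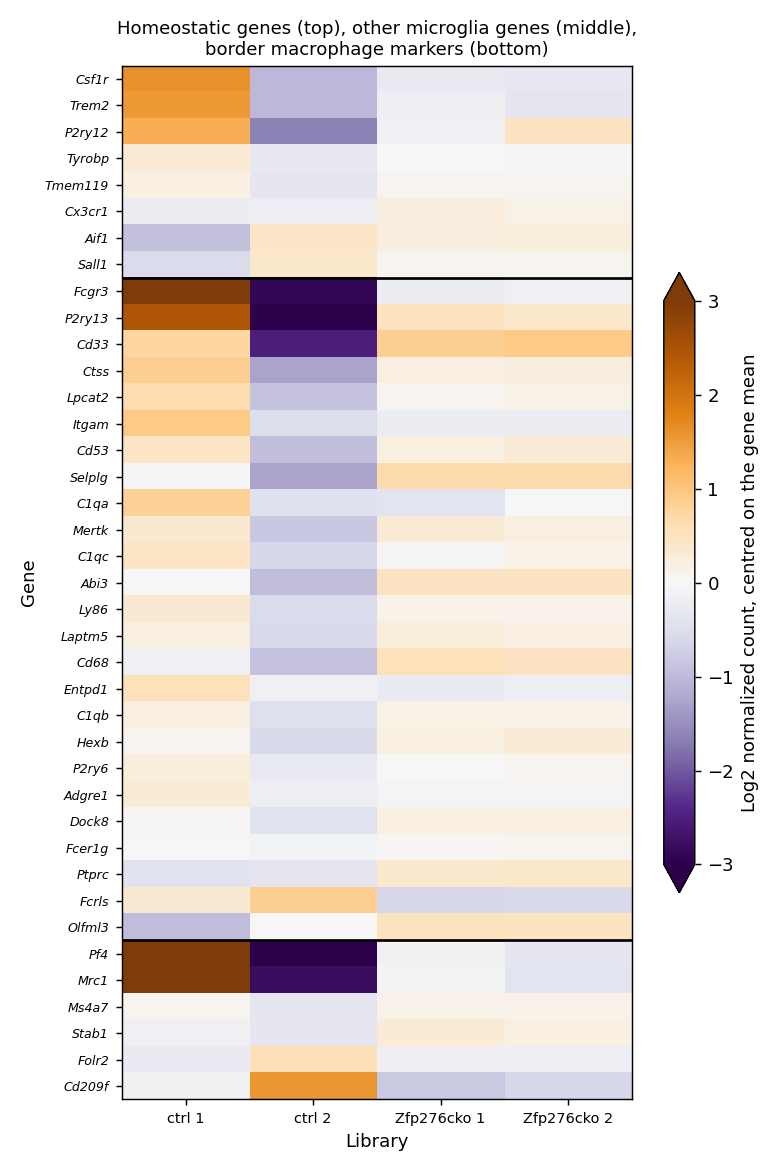
Log2 normalized count of each gene in each library, centred on the mean of the gene, for the 8 detected homeostatic genes (top), 25 other microglia genes (middle) and 6 border macrophage markers (bottom), with colours that saturate beyond 3 log2 units. Ctrl 1 and ctrl 2 have strong opposite colours for Csf1r, Trem2, P2ry12, Fcgr3, P2ry13, Pf4 and Mrc1, and the Zfp276cko libraries are alike.

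Partners of the receptors were looked at next. Among the ligands of Csf1r, Csf1 had 1451 and 1786 normalized counts in ctrl and 2461 and 2451 in Zfp276cko libraries, with a log2 fold change of 0.60 (unadjusted p = 0.00875, adjusted p = 0.183 in edgeR). Il34, the other ligand, was near the detection limit with 8.31, 10.1, 13.6 and 19.8. The ligand thus did not follow its receptor, which was highest in ctrl 1. Csf2rb, the common beta chain of the receptors for GM-CSF, IL-3 and IL-5, had 2500.4, 139.5, 689 and 686 normalized counts and showed the order of Csf1r. Its close copy Csf2rb2 can share reads with it and had 1253, 39.4, 297 and 314. Of the 6 genes in this list, 1 was higher at an unadjusted p of 0.05 in edgeR (8.33% of all genes). None was called by edgeR (0% of all genes) or DESeq2 (4.91%).

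Of 15 tested genes for receptors that pair with Tyrobp, ligands of Trem2 and downstream signalling, 4 were higher and 3 lower in Zfp276cko cultures. This was at an unadjusted p of 0.05 in edgeR, compared with 8.33% and 7.3% of all genes. None was called by edgeR (0% of all genes), and DESeq2 called 3 higher and 1 lower, compared with 4.91% of all genes in either direction. Syk, the kinase recruited by Tyrobp, had 3055 and 3739 normalized counts in ctrl and 5589 and 5712 in Zfp276cko libraries (log2 fold change 0.73, adjusted p = 0.16 in edgeR). Apoe, a lipoprotein ligand of Trem2 that astrocytes also make, had the most counts of the list with 30593, 22682, 54489.6 and 50557, and Clu, a further lipoprotein ligand, had 1364, 1193, 2104 and 1958. The receptor gene Clec5a, whose product signals through Tyrobp, had 714 and 306 in ctrl and 157 and 175 in Zfp276cko libraries. DESeq2 called these 4 genes, Clec5a as the lower one. The list median was 0.06, compared with 0.35 without ctrl 1 and -0.04 without ctrl 2.

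Partners of Cx3cr1, P2ry12 and Gpr34 included ligands and G protein subunits. Cx3cl1, the ligand of Cx3cr1, had 429, 572, 567 and 594 normalized counts, and Gnai2, the G protein subunit with the most counts, had 18150.1, 14336, 15545 and 14664. Of 5 tested genes, none passed an unadjusted p of 0.05 (8.33% of all genes higher and 7.3% lower), and none was called by edgeR (0% of all genes) or DESeq2 (4.91%).

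Signalling by TGF-beta and the transcription factors that maintain microglia were further lists. Among 11 tested TGF-beta pathway genes, Tgfb1, which encodes the main ligand, was higher (974, 1326, 1653 and 1668, log2 fold change 0.53) and the signal transducer Smad3 lower (1801, 1622, 1422 and 1353, -0.30) at an unadjusted p of 0.05, compared with 8.33% of all genes higher and 7.3% lower. None of them was called by edgeR (0% of all genes) or DESeq2 (4.91%). The list median was 0.05, which turned to -0.17 without ctrl 2. Among 11 transcription factors, 2 were higher at this p and none was lower, again beside 8.33% and 7.3% of all genes, and 7 lay above both ctrl libraries, compared with 26.8% of all genes. Cebpb had 628, 726, 1421 and 1467 normalized counts (log2 fold change 1.09, adjusted p = 0.103 in edgeR), and Ikzf1 had 787, 845, 1068 and 1121. DESeq2 called Cebpb alone of the list, compared with 4.91% of all genes, and edgeR called none (0%). Spi1, the gene for PU.1 that specifies macrophages, had 1665, 2135, 2306 and 2203, so that Spi1, like Sall1, was lowest in ctrl 1. Irf8 had 899, 523, 1245 and 1141. The median of the list was 0.25, and it was 0.49 without ctrl 1 and 0.06 without ctrl 2.

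Sequences just before the transcription start were available for 5 of the 9 genes in RefSeq (GRCm38.p6, 7 windows of 250 bases). They are shown for P2ry12 and Trem2, which moved together between the ctrl libraries, and for Aif1, which moved in the opposite direction, 5′ to 3′ on the strand of the gene. Capitals mark AGGAAGT in P2ry12 and GAAANNGAA in Aif1. Transcription starts here are those of RefSeq and can differ from the GENCODE positions given below. In GENCODE, P2ry12 reaches to 59262871, short of its window, and Aif1 to 35176068, inside its window.
P2ry12, chr3:59262986-59263235, minus strand: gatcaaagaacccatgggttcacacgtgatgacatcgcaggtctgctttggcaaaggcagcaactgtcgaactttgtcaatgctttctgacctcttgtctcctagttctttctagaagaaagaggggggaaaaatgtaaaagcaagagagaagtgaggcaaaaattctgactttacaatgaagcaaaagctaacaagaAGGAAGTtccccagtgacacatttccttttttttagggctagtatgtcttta
Trem2, chr17:48346151-48346400, plus strand: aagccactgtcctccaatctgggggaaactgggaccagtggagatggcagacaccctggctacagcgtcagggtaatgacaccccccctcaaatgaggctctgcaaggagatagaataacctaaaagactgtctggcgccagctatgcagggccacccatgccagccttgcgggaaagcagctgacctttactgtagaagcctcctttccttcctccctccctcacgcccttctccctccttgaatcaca
Aif1, chr17:35176053-35176302, minus strand: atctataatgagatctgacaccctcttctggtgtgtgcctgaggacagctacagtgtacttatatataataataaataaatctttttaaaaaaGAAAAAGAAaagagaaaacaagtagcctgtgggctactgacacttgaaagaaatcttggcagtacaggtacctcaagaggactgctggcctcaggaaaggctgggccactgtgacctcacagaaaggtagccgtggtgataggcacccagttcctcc
On both strands, GAGGAAGT, a motif bound by PU.1, was found in 0 of the 7 windows and in 2.44% of 32851 windows of the same length. Its shorter form AGGAAGT, which is part of it and was chosen after these windows were seen, was found in 2 windows (P2ry12, 52 bases before the start, and Sall1, 181 bases) and in 7.69% of all. GGAANNGAA, a joint motif of PU.1 and IRF factors, was found in 0 of 7 and in 6.99% of all, and GAAANNGAA, an IRF motif, in 1 of 7 (Aif1, 157 bases before the start) and in 7.13%. These matches describe letters in the windows and not bound sites.

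Further macrophage types were examined through border-associated macrophage markers. Mrc1, the mannose receptor, had 566, 7.88, 54.3 and 43.8 normalized counts, and the chemokine gene Pf4 had 628, 4.50, 44.3 and 37.8. F13a1 had 746, 0, 4 and 7 counts. All 3, like Csf1r, Trem2 and P2ry12, had ctrl 1 on top and ctrl 2 at the bottom. Folr2 (229, 408, 246 and 242 normalized counts) and Cd209f (113, 357, 68.8 and 78.2) were highest in ctrl 2 instead, so that of 6 tested markers 2 were highest in ctrl 1 and 2 in ctrl 2. Stab1, the gene of the list with the most counts without regard to length, was highest in the Zfp276cko libraries (5589, 4824, 7544 and 6901), and so the summed level of the 10 markers was 424, 321, 472 and 443 CPM. Cd163 and Lyve1, defining markers of these cells, had at most 13 and 4 counts. At an unadjusted p of 0.05 in edgeR, Cd209f was lower and Stab1 higher in Zfp276cko cultures. This was 1 of 6 each, compared with 7.3% and 8.33% of all genes. None was called by edgeR (0% of all genes) or DESeq2 (4.91%). The part of such cells in the homeostatic genes was not tested.

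Markers of other cells also set the ctrl libraries apart. Summed over 10 fibroblast and vessel genes, the level was 358 CPM in ctrl 1 and 24.0, 22.0 and 19.4 in the other libraries, with Col1a2 (2703, 41.6, 49.8 and 41.2 normalized counts) on top in ctrl 1 and the endothelial marker Cldn5 at 0. Neuron markers were lowest in ctrl 1 for 8 of 9 tested genes, compared with 5247 of all 15766, with a sum of 711, 1322, 979 and 1074 CPM and with the most counts for Map2. Gad1, which makes the transmitter GABA, had 78.4, 2002, 920.2 and 1003 normalized counts, an order shared with Aif1. Astrocyte markers summed to 1491, 1228, 1526 and 1450.5 CPM, led by Gfap and with Gjb6 at 0. Of 9 tested astrocyte markers, 5 were lowest in ctrl 1, compared with 5247 of all 15766, among them Aqp4 (1838, 3818, 3055 and 3364 normalized counts). In the other direction, 3 were highest in ctrl 1 and 3 lowest in ctrl 2, compared with 4836 and 4856 of all genes. Gfap was 1 of these (17641, 8463, 12993 and 12248 normalized counts). The median difference of ctrl 1 from ctrl 2 over the astrocyte markers was -0.97 on the log2 scale. The part of these differences in the values of the homeostatic genes was not tested.

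Most markers of infiltrating blood cells had few counts. Ly6g and Chil3 were at 0 in all libraries, Ccr2 had at most 5 counts, and the monocyte and neutrophil list summed to 138 to 354 CPM, of which Itgal, an integrin that microglia can also express, made up 97.6 to 99.8%. Lymphocyte markers summed to at most 3.24 CPM, led by Cd4, and Ms4a1 was at 0. Whether the genes at 0, here and among the vessel and astrocyte markers, were silent or were not captured by the counting was not tested.

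Oligodendrocyte markers summed to 12964, 18563, 10062 and 10276 CPM, led by Mbp, and OPC markers to 6950.0, 5639.9, 4365 and 4281, of which Gpr17 alone made up as much as 64.5% of a library's sum. The oligodendrocyte sum was lower in both Zfp276cko libraries. For the interferon response list the median log2 fold change was 3.59 (5.09 without ctrl 1 and 2.83 without ctrl 2). All 12 were higher in each Zfp276cko library than in either ctrl library, compared with 26.8% of all genes, and their sum was 356, 151, 3309 and 3194 CPM, led by Ifit3. None was called by edgeR (0% of all genes), 11 were higher at an unadjusted p of 0.05 in edgeR (8.33%), and DESeq2 called 9 (4.91%). Microglia, among other cells, respond to interferon, and the part of this difference in the level of Cx3cr1 was not tested.

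**Figure D5:**
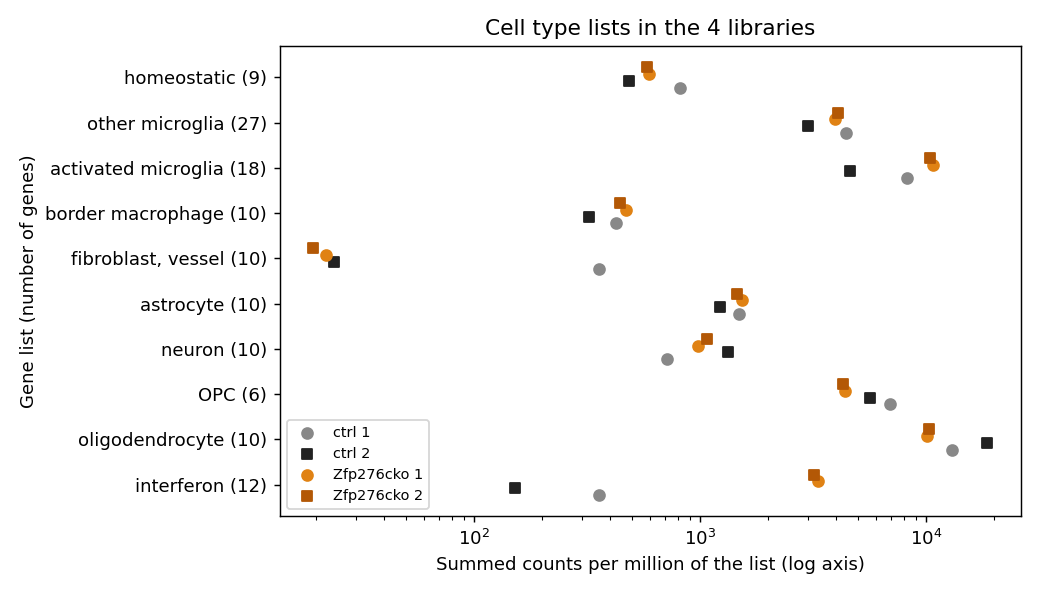
Summed CPM (log axis) of 10 gene lists in each library, with circles for replicate 1 and squares for replicate 2 of ctrl (grey, black) and Zfp276cko (orange, brown). The homeostatic genes have 818 CPM in ctrl 1 and 483 to 591 in the other libraries, and fibroblast and vessel genes stand apart in ctrl 1 alone. Csf1r takes 55.1% of the homeostatic sum in ctrl 1 and 16.2 to 22.8% in the other libraries.

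In the GENCODE annotation of mm10, Csf1r lies on chromosome 18 from 61100598 to 61132149, Trem2 and Aif1 on chromosome 17 from 48346401 to 48354147 and from 35170991 to 35176068, and Tyrobp on chromosome 7 from 30413760 to 30417585. P2ry12 lies on chromosome 3 from 59216272 to 59262871, Tmem119 on chromosome 5 from 113793729 to 113800516, and Cx3cr1 on chromosome 9 from 119901616 to 120069879. Sall1 lies on chromosome 8 from 89027235 to 89044162 and Gpr34 on chromosome X from 13632089 to 13640858. All are protein-coding genes, and the counts refer to their exons. Apart from Csf1r, only P2ry12 (9 bases, Med12l) and Cx3cr1 (78 bases, Gm33858) share exon bases with another gene, each on the opposite strand.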

How the data were processed

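RNA was sequenced from 4 libraries, 2 per genotype. According to the study's methods and the submitters' processing notes, the authors made stranded mRNA libraries, sequenced single ends of 101 bases, mapped reads to mm10 with STAR 2.5.4a and deposited raw counts for each gene symbol, neither normalized nor filtered. The methods name HTSeq and the notes featureCounts 1.5.1 as the counting tool, and the strand setting is not given in the sources used here. Counting without strand would add reads of overlapping genes to each other.

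Groups came from the genotype labels. Genes kept by filterByExpr (15766) were normalized with TMM and compared with edgeR 4.0.16 (quasi-likelihood test, R 4.3.3, limma 3.58.1), with Benjamini-Hochberg adjustment over all of them and without covariates. Thresholds were those of the study. Alternatives were DESeq2 1.42.0, its size factors, no filter, a minimum of 10 counts in all libraries, the replicate number as a block and leaving out each library. List medians without a ctrl library were added after seeing the data, except for the other microglia and macrophage genes, where they were planned. A count of 3 was taken as the floor, and Poisson and binomial intervals cover counting error only. Lengths and positions came from GENCODE, promoters from RefSeq. Named genes are the 9 homeostatic genes, Zfp276, Sox10, the gene with the most counts in each list, partners of the homeostatic genes and the 5 nearest profiles, and further list members were named after their values were seen. The homeostatic genes and lists were chosen with earlier results of these data known. The nearest single profile of Tyrobp is not reported here. The procedure was tested on simulated counts.

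Samples with the same replicate number were not paired: their deviations from the genotype mean had a correlation of 0.01 over 14324 genes.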

Additional observations from a re-analysis of the deposited data

How the results depend on the processing

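With 2 pooled preparations per genotype, differences smaller than the gap between the ctrl libraries could not be resolved. Larger differences were not called by edgeR either. Zfp276 had a log2 fold change of -1.97, beside a log2 difference of ctrl 1 from ctrl 2 of -0.44, and an adjusted p of 0.0962 in edgeR. P2ry12 had the fewest counts of the detected genes. Its Poisson intervals in the ctrl libraries (126 to 179 and 11.1 to 30.6 normalized counts) did not overlap, but they hold no spread between preparations. The number of called homeostatic genes was 0 with all libraries and 0 to 5 when a library was left out, with 3 without ctrl 1, 5 without ctrl 2 and 0 without either Zfp276cko library. Over the same fits their median log2 fold change ran from -0.23 to 0.39, and that of the other microglia genes from -0.22 to 0.74. With 1 library left out, log2 fold changes ranged from -1.12 to 1.86 for P2ry12, -1.92 to 0.72 for Csf1r, -1.80 to 0.76 for Trem2, -0.36 to 0.27 for Tyrobp, -0.11 to 0.42 for Tmem119, -0.20 to 1.15 for Aif1, -0.29 to 0.62 for Sall1 and 0.35 to 0.41 for Cx3cr1. The direction turned without ctrl 1 for P2ry12, Csf1r, Trem2, Tyrobp, Aif1 and Sall1, and without ctrl 2 for Tmem119. These fits hold fewer samples, and the cause was not tested further. With a replicate block, P2ry12 turned to 0.25, no homeostatic gene was called and the lowest adjusted p among them was 0.411 in edgeR. DESeq2, its size factors, no filter and at least 10 counts in every library kept the direction of all 8 genes and called none of them. Over all genes, edgeR called 0 with all libraries, 952 lower and 1689 higher without ctrl 1, 1286 lower and 1792 higher without ctrl 2, and 8 higher without a filter, and DESeq2 called 335 lower and 445 higher.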

Other observations

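Genes of activated or phagocytic microglia were a further list. It includes genes that other cells can also make, such as Apoe from astrocytes, and the source of their RNA was not tested. Of 18 tested genes, 11 were higher and 1 was lower in each Zfp276cko library than in either ctrl library, compared with 26.8% and 23.7% of all tested genes. At an unadjusted p of 0.05 in edgeR, 4 were higher and 0 lower, compared with 8.33% and 7.3% of all genes. DESeq2 called 3 higher, compared with 4.91% of all genes in either direction, and edgeR called none (0%). Ch25h, which makes 25-hydroxycholesterol, had 296 and 414 normalized counts in ctrl and 1457 and 1329 in Zfp276cko libraries, a log2 fold change of 1.97 (adjusted p = 0.103, edgeR). Clec7a, a receptor for beta-glucans, had 484 and 585 in ctrl and 1189 and 1178 in Zfp276cko libraries, a log2 fold change of 1.15 (adjusted p = 0.117, edgeR). The lysosomal protease gene Ctsb had the most counts of the list, without regard to gene length, with 53048 and 27784 in ctrl and 74494 and 71966 in Zfp276cko libraries.

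Some genes of this list were lower in Zfp276cko libraries than in 1 or both ctrl libraries. Lpl, the gene for lipoprotein lipase, had 1977 and 4332 normalized counts in ctrl and 1823 and 1912 in Zfp276cko libraries, below both ctrl values, and the growth factor gene Igf1 had 2340.1, 659, 1089.4 and 1093.7. Spp1, the gene for osteopontin, had 23756 and 1909 normalized counts in ctrl and 3713.5 and 3446 in Zfp276cko libraries, the order seen for Csf1r. Chemokine genes Ccl3 (1046, 4717, 7412 and 7733) and Ccl4 (289, 1476, 2319 and 2413) were lowest in ctrl 1, as Aif1 was. The list median was 0.74, and it was 1.11 without ctrl 1 and 0.29 without ctrl 2.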
